A study of Mus musculus with 24 samples.

Results

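The aminoacyl-tRNA synthetases are the enzymes that join each amino acid to its transfer RNAs, and their transcripts were followed here across 24 RNA-seq libraries of mouse C127l cells. Members were taken by gene symbol, as the symbols of synthetase genes in all 6 deposited tables. The rule uses no measured value, though it was set with earlier results of these data known. This gave 37 genes of the 25124 in the older of the gene sets used by the tables. Of them, 20 encode cytosolic enzymes (no digit in the symbol, or a 1) and 17 encode mitochondrial enzymes (a 2). All 37 had a mean of at least 10 normalised reads in every table, the lowest being Pars2 with 141.0, so each was tested in every comparison.

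The series studied how bile acids act on the glucocorticoid receptor, the nuclear receptor for corticosterone. Per the labels, every culture was of C127l adenocarcinoma cells made to lack their own receptor (GRKO) and carrying mouse receptor with a GFP tag. The line with the wild-type receptor, GFP-mGRwt, is called wt, and the line with GFP-mGRtetra, a form on which the labels give no details, is called tetra. Each line was kept for 24 h in medium with 10% charcoal-stripped serum and then treated for 2 h with Cort (corticosterone, 100 nM), with TCA (100 µM) or with both agents, or received vehicle. The labels leave TCA as an abbreviation, usually read as taurocholic acid, a bile acid conjugated to taurine. These are 8 groups of 3 libraries. The labels do not say that the replicates are separate cultures, so the p-values measure the spread between these libraries, which may be technical. Receptor form and cell line cannot be told apart, since each form is in a single line, and in wt an effect of TCA cannot be told apart from a batch that the TCA libraries might share.

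The libraries held between 22.02 M and 30.57 M exon reads. The receptor gene Nr3c1 was detected in all 24 libraries with 4179 to 6477 normalised reads, and these counts do not separate the introduced receptor from transcripts of the disrupted gene. In wt they were 4179 to 4307 with TCA against 5265 to 5670 with vehicle. In tetra they were 5354 to 6477 with TCA against 5267 to 5647 with vehicle. The part of these Nr3c1 levels in the synthetase results was not tested. Adenocarcinoma cells are of epithelial origin, but 7 of 8 epithelial markers averaged below 10 normalised reads, with Epcam at 0 in all libraries, and Krt14 was the exception. All 6 mesenchymal markers were present, Vim with 61438 to 118178 reads. With TCA in wt the summed epithelial markers were 158 to 269 against 1077 to 1228 with vehicle, and the mesenchymal sum, mainly Vim and Col1a2, was 121340 to 133759 against 169038 to 172120. Acta2 was not tested, and of the other 5 mesenchymal genes 2 were higher (Col1a1, fold 1.66, and Col1a2, 1.24) and 3 lower (Vim, 0.572, Col3a1, 0.653, and Pdgfrb, 0.438). The immune sum was 108 to 125 against 201 to 251, the endothelial sum 123 to 164 against 266 to 294, and the adipocyte sum 12.9 to 20.7 against 5.84 to 15.6; Ptprc, Cd3e, Pecam1, Kdr and all 3 adipocyte markers averaged below 10 reads. In tetra the epithelial sum was 592 to 601 with TCA and 532 to 661 with vehicle. In bulk RNA, fewer cells of a type and less RNA per cell cannot be told apart, and the part of these markers in the synthetase results was not tested.

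A synthetase activates its amino acid with ATP and transfers it to the matching tRNA, which then carries it to the ribosome. Mammalian cells translate with separate sets of synthetases in the cytosol and in mitochondria, both encoded in the nucleus. Several cytosolic enzymes are held with the scaffold proteins Aimp1, Aimp2 and Eef1e1 in the multisynthetase complex, here represented by Eprs, Lars, Iars, Mars, Qars, Rars, Kars and Dars. Gars and Kars each supply both compartments from a single gene, so neither has a partner with a 2, and no mitochondrial glutamine enzyme exists because that tRNA is charged with glutamate and then amidated. Many cytosolic synthetase genes are known targets of ATF4, the transcription factor of the integrated stress response and the amino acid response, which binds composite C/EBP-ATF sites.

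The letters of that composite site, TGATGNAA on either strand (TTNCATCA when read from the other strand), were searched in RefSeq promoter windows of GRCm38.p6, the build called mm10 in the submitters' processing notes. Each window ran from 250 bases before the start of the gene to 50 bases after it. A window was found for 27 members, and those without a window included Cars, Hars, Hars2, Lars, Nars, Pars2, Rars, Vars and Wars. The letters occurred in 5 of 13 cytosolic genes with a window (38.5%) and in 0 of 14 mitochondrial genes, while 3.97% of all 32851 windows and 4.51% of all 27025 genes held them. The 5 genes were Aars, Gars, Iars, Tars and Yars, with 2 matches in Aars. Their sequences from 150 bases before the start to 30 after it are shown because they carry the matches (in capitals). Beside them is Qars, which holds no match and is the cytosolic gene that was lower with TCA in wt. The other cytosolic genes with a window and no match were all called higher there, with folds up to 1.45. The sequences run 5′ to 3′ on the strand of the gene.
Gars, chr6:55037851-55038030, plus strand: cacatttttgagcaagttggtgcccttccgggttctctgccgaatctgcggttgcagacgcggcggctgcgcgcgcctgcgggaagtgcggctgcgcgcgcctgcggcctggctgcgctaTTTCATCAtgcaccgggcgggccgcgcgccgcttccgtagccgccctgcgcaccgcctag
Aars, chr8:111033692-111033871, plus strand: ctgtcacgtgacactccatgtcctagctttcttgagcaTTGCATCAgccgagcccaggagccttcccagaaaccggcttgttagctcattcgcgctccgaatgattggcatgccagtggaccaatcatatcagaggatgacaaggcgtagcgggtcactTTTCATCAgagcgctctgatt
Iars, chr13:49681980-49682159, plus strand: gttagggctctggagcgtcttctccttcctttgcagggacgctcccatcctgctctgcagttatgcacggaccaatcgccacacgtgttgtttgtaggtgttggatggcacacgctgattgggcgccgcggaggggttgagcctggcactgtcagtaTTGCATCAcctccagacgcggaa
Tars, chr15:11399629-11399808, minus strand: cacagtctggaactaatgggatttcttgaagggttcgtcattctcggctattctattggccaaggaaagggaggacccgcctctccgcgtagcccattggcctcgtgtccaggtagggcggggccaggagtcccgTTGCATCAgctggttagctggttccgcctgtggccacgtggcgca
Yars, chr4:129189753-129189932, plus strand: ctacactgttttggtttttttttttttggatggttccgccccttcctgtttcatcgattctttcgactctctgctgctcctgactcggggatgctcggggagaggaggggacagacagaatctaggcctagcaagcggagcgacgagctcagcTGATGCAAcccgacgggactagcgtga
Qars, chr9:108507855-108508034, plus strand: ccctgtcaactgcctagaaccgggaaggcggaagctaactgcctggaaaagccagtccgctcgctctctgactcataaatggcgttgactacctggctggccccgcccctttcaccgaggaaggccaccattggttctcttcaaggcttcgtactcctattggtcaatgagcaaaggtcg

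The match in Gars began 30 bases before the start of the gene, and that in Tars 15 bases before it. In Aars the matches lay 112 bases before the start and at position 9 after it. Those of Iars and Yars lay just inside the gene, at positions 7 and 3 after the start. A match of letters is a description of the window and not a binding site, and a window without them says only that these letters are not in it.

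Synthetase transcripts differed widely in abundance, with the cytosolic enzymes well above the mitochondrial ones. On a scale of normalised reads per kb of exon, the median level with vehicle in wt was 848 over the 20 cytosolic genes and 153 over the 17 mitochondrial genes, a ratio of 5.54. The highest level per kb was that of Aars, the alanine enzyme, at 2116 ± 43.8 (SD, n = 3), followed by Eprs, the bifunctional glutamate and proline enzyme, at 1801 ± 62.4. The lowest cytosolic levels per kb were those of Hars (495 ± 12.6), Farsb (502 ± 19.9) and Lars (511 ± 11.4), each less than 1 SD from the next in this order. Iars2, the mitochondrial isoleucine enzyme, stood at 521 ± 2.93 per kb and was the single mitochondrial gene above the lowest cytosolic one. Pars2 and Ears2 lay lowest, at 51.0 and 52.2 per kb. In tetra with vehicle the medians per kb were 1014 and 159.

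Replicates lay close together for nearly all members. The median coefficient of variation within a group was 3.7% over the cytosolic genes and 5.77% over the mitochondrial genes. Lars2, the mitochondrial leucine enzyme, stood apart with 20.6%, against 7.99% for Aars2, the next. Its normalised counts with vehicle were 404, 453 and 1132 in wt and 664, 665 and 1304 in tetra, so a single library of each triplet held most of the spread. Summed values of the mitochondrial class are therefore given without Lars2 as well.

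With TCA in wt, the cytosolic synthetases were higher almost throughout, and the mitochondrial ones moved less. On a scale joined over the 24 libraries, the 20 cytosolic genes summed to 61368 ± 697 normalised reads with vehicle and 93289 ± 766 with TCA, a ratio of 1.52. The 16 mitochondrial genes without Lars2 summed to 7809 ± 168 and 8693 ± 88.7, a ratio of 1.11, or 1.08 with Lars2. In both sums every TCA library lay above every vehicle library. Tested gene by gene with limma over all 12725 genes of the comparison, 19 of the 20 cytosolic genes rose and 1 fell, and 5 of the 17 mitochondrial genes rose and 0 fell, at an adjusted p (Benjamini-Hochberg) below 0.05. In this comparison 57.4% of all genes tested were called, 28.8% as higher and 28.6% as lower, so the cytosolic share was well above that background, and 5 of 17 mitochondrial genes called higher was close to it. The median fold was 1.46 for the cytosolic genes, 1.07 for the mitochondrial genes and 1.00 over all genes tested.

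**Figure D1:**
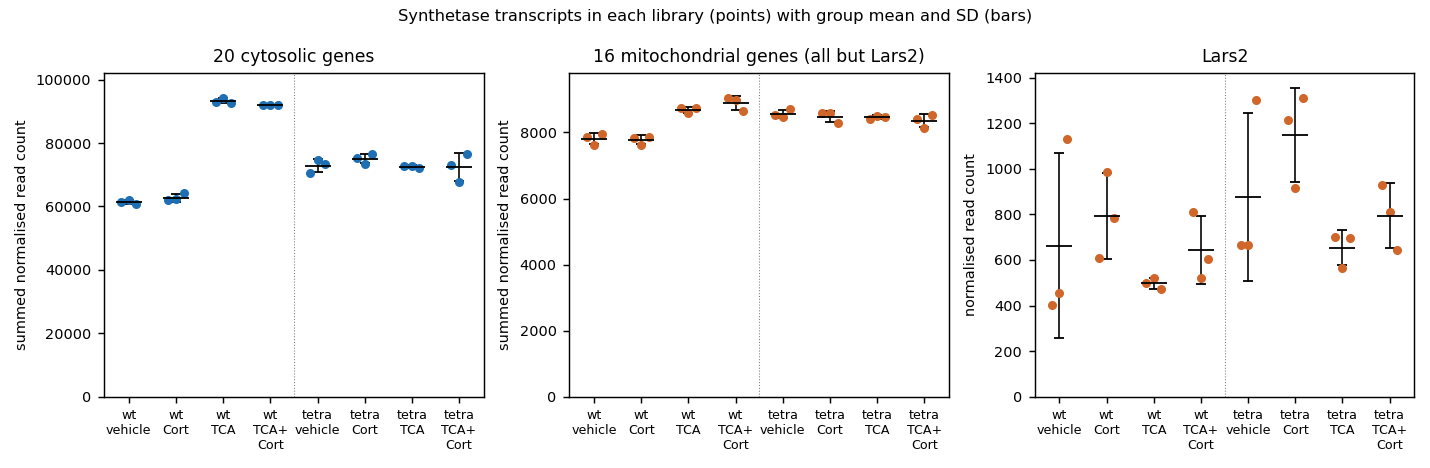
Normalised read counts on the scale joined over the 24 libraries: the sum of the 20 cytosolic genes, the sum of 16 mitochondrial genes, and Lars2 by itself, for each group of 3 libraries (points: libraries, bars: mean and SD). The cytosolic sum of wt is near 61368 with vehicle and 93289 with TCA, that of tetra is 72762 with vehicle and 72542 with TCA, and Lars2 spreads from 404 to 1132 within wt vehicle.

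Of the cytosolic genes outside the multisynthetase complex, 12 of 12 rose, with a median fold of 1.51. Gars, which charges glycine (chr6:55038001-55079504), had 3043, 3048 and 2919 normalised reads with vehicle and 5663, 5549 and 5570 with TCA. Its fold of 1.86 came with an adjusted p of 1.01e-09, and the triplets lay far apart. Wars, the tryptophan enzyme (chr12:108860030-108893198), had 2238, 2173 and 2240 reads against 3891, 4084 and 4306 with TCA, a fold of 1.85 (adjusted p = 4.37e-09). Vars, the valine enzyme (chr17:35000907-35016329), had 4408, 4572 and 4767 reads against 8073, 7767 and 9646, a fold of 1.85 (adjusted p = 1.18e-07). TCA replicate 3 was the highest, and without overlap the lowest TCA library stood well above all vehicle libraries. Tars, for threonine, rose from 1951, 1960 and 1970 to 3569, 3829 and 3275 reads, a fold of 1.81 (adjusted p = 2.22e-08). Nars, for asparagine, rose from 3542, 3602 and 3436 to 6187, 6412 and 6154 reads, a fold of 1.77 (adjusted p = 2.75e-09). In both genes the TCA libraries were all high and none reached down to the vehicle range.

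Aars, already the most abundant per kb, shares 14.3% of its exon bases in GENCODE with Exosc6 on the same strand. It rose from 7338, 7397 and 7131 to 10963, 11196 and 10923 reads, a fold of 1.51 (adjusted p = 5.6e-08). Cars, for cysteine, rose 1.51-fold and Yars, for tyrosine, 1.47-fold, again without overlap. Farsb and Farsa encode the β and α subunits of the cytosolic phenylalanine enzyme and moved unequally. Farsb rose from 1056 ± 41.7 to 1435 ± 28.7 reads, a fold of 1.36 (adjusted p = 8.82e-06), whereas Farsa had 1238, 1123 and 1274 reads with vehicle and 1314, 1327 and 1393 with TCA, a fold of 1.11 (adjusted p = 0.0421). Sars rose 1.33-fold and Hars 1.15-fold (912 ± 24.7 to 1047 ± 39.4 reads, adjusted p = 0.00859). Hars shares 8.0% of its exon bases with Hars2 on the opposite strand. Since no header states whether strand was used in counting, reads of such pairs cannot be told apart.

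Within the multisynthetase complex, 7 of the 8 genes rose, 1 fell and the median fold was 1.41. Lars, for leucine, rose from 1850 ± 38.1 to 3259 ± 152 reads, a fold of 1.76 (adjusted p = 1.04e-08), and Iars, for isoleucine, from 3566 ± 57.7 to 5899 ± 212, a fold of 1.65. Eprs had 8298, 8387 and 7880 reads with vehicle and 12044, 12582 and 11032 with TCA, a fold of 1.45 (adjusted p = 1.42e-06), with all TCA libraries high. Mars, Rars and Kars, for methionine, arginine and lysine, rose 1.42-, 1.40- and 1.29-fold. Qars, the glutamine enzyme (chr9:108508005-108515941), went the other way, from 1896, 1954 and 1934 reads to 1652, 1647 and 1729. Its fold was 0.869 (adjusted p = 0.00255), every TCA library lay below every vehicle library, and scaling by total exon reads without Rn45s ended the call (adjusted p = 0.0613). Dars, for aspartate, had 1391, 1422 and 1309 reads against 1539, 1632 and 1414, a fold of 1.11 (adjusted p = 0.0476), and its triplets overlapped. The calls of Dars and Farsa were each lost in 7 of 12 alternative settings, with adjusted p up to 0.21 and 0.214.

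Among the mitochondrial enzymes, the partners for valine and tyrosine rose most. Vars2 (chr17:35655635-35667592) had 465, 493 and 493 reads with vehicle and 784, 711 and 785 with TCA, a fold of 1.57 (adjusted p = 2.54e-06). Yars2 (chr16:16302965-16309640) had 549, 482 and 582 reads against 796, 789 and 850, a fold of 1.51 (adjusted p = 1.34e-05). Sars2, for serine (chr7:28741968-28753879), had 225, 211 and 238 reads against 289, 280 and 328, a fold of 1.33 (adjusted p = 0.00257). None of these triplets overlapped. Nars2 and Rars2 each rose 1.19-fold with adjusted p of 0.0246 and 0.03, and these calls did not last: without vehicle replicate 1, without vehicle replicate 3 or without TCA replicate 2, 3 mitochondrial genes were called in place of 5. Vars2 shares 8.5% of its exon bases with an antisense gene, Gm20483.

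The other 12 mitochondrial genes did not pass the test. Iars2, the most abundant of them per kb, had 1719 ± 8.69 reads with vehicle and 1672 ± 77 with TCA, a fold of 0.973 (adjusted p = 0.518), and 22.9% of its exon bases are shared with Rab3gap2 on the opposite strand. Fars2, a single-chain phenylalanine enzyme, had 310, 286 and 279 reads against 267, 248 and 234, a fold of 0.856 with no overlap and an adjusted p of 0.052. Lars2 had 377, 423 and 1058 reads against 468, 490 and 443, so that its fold of 0.754 (adjusted p = 0.42) turned on a single vehicle library. The remaining 9 genes had folds from 0.993 for Aars2 to 1.13 for Cars2, with Tars2, for threonine, at 1.07 (adjusted p = 0.298).

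Set beside each other by amino acid, the cytosolic gene had the larger fold in 16 of 18 pairs, in which Eprs was paired with both Ears2 and Pars2, and Farsa and Farsb both with Fars2. The median difference of log2 folds, cytosolic minus mitochondrial, was 0.425. The pairs for isoleucine, threonine and tryptophan each differed by 0.77 on this log2 scale. The pair for leucine differed by 1.23, a value that rests on Lars2 in vehicle replicate 3: without that library the fold of Lars2 was 1.17 and the difference 0.57. Serine and tyrosine were the exceptions, with folds of 1.33 for both Sars and Sars2, and 1.47 for Yars against 1.51 for Yars2. Valine was a pair in which both genes rose strongly, by 1.85 and 1.57. Pairs that share an enzyme are not independent, and these counts are given as a description.

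**Figure D2:**
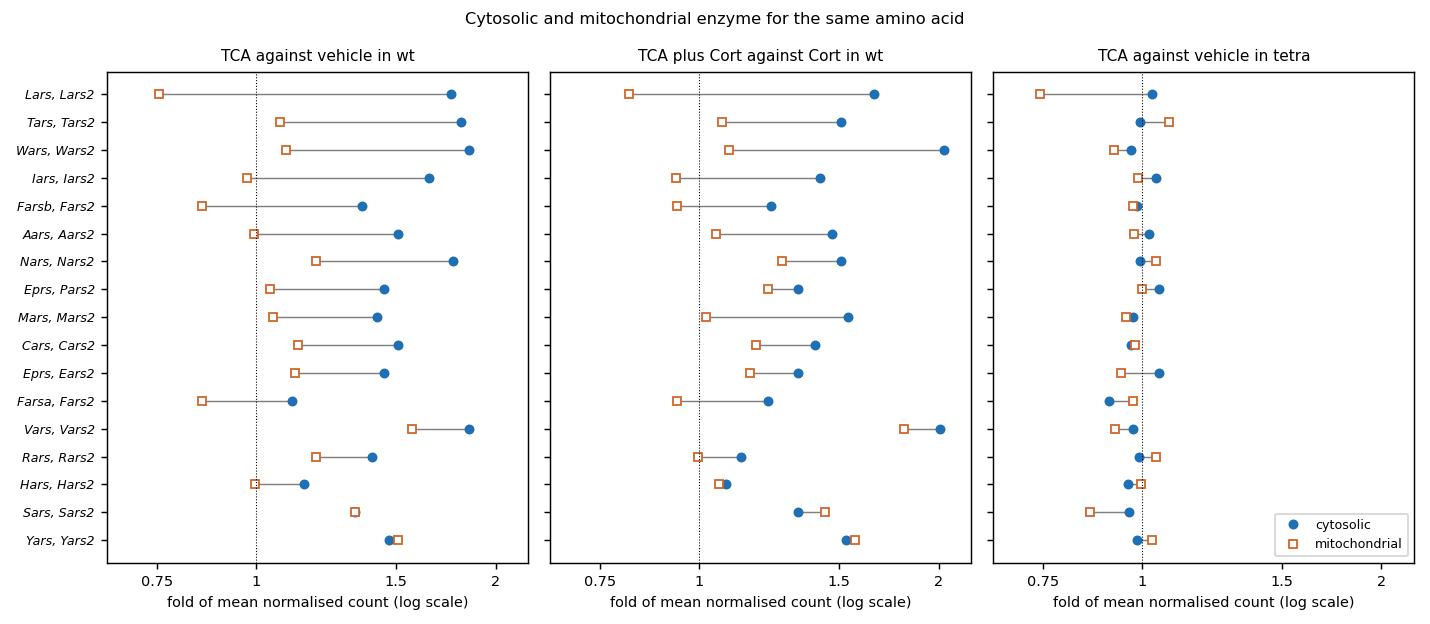
Fold of the mean normalised count (log scale) of the cytosolic gene (filled circles) and of the mitochondrial gene for the same amino acid (open squares), in 17 of the 18 pairs, for TCA against vehicle in wt, TCA plus Cort against Cort in wt, and TCA against vehicle in tetra. The cytosolic gene has the larger fold in 16, 15 and 11 of all 18 pairs.

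Folds were set beside levels within each class. The level here was the log2 mean normalised count with vehicle in the same line, not divided by exon length. Across the 20 cytosolic genes, the log2 change with TCA in wt had a Pearson r of 0.43 and a Spearman rho of 0.57 with it. Across the 17 mitochondrial genes the values were -0.12 and -0.18. In tetra, where no synthetase was called with TCA, the cytosolic values were 0.45 and 0.37. Genes are not independent replicates and all were read from the same 6 libraries, so these are descriptions. The 5 cytosolic genes with the composite letters in their promoter window had a median fold of 1.65, from 1.47 to 1.86. The 8 cytosolic genes with a window and without the letters had a median fold of 1.31, from 0.869 to 1.45. With Cort in both arms the ranges overlapped, 1.42 to 1.85 with the letters and 0.939 to 1.54 without them. Wars, Vars, Nars and Lars, with folds of 1.76 to 1.85 with TCA against vehicle, have no window and fall outside this split. So do Cars (1.51), Rars (1.40) and Hars (1.15). No test was made of the split.

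With Cort present in both arms, most cytosolic synthetases were again higher with TCA in wt, in groups that share no library with TCA against vehicle. Against Cort, TCA plus Cort had 17 of 20 cytosolic genes higher and 0 lower, and 7 of 17 mitochondrial genes higher and 0 lower, where 58.8% of all 12858 genes tested were called, 29.8% as higher and 29% as lower. Median folds were 1.41 for the cytosolic genes, 1.09 for the mitochondrial genes and 0.999 over all genes tested. Wars had 2417, 2336 and 2277 normalised reads with Cort and 4820, 4744 and 4689 with TCA plus Cort, a fold of 2.03 (adjusted p = 1.48e-13). Vars had 4943, 4967 and 4447 reads against 9724, 10017 and 9056, a fold of 2.01 (adjusted p = 1.48e-12). In both genes the triplets were separated by a wide gap. Gars rose 1.85-fold, from 3112 ± 113 to 5752 ± 17.5 reads.

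Vars2 had 495, 554 and 461 reads with Cort and 923, 933 and 871 with TCA plus Cort, a fold of 1.81 (adjusted p = 3.35e-09). Yars2 rose 1.57-fold, from 591 ± 8.88 to 925 ± 48.4 reads, and Sars2 1.44-fold, from 231 ± 16.3 to 333 ± 19.7. These were again the leading mitochondrial genes, with no overlap between arms. Nars2 rose 1.27-fold (adjusted p = 0.00169), and Dars had a fold of 0.961 (adjusted p = 0.404). Cars2 and Ears2 rose 1.18- and 1.16-fold, with calls lost in 2 and 5 of 12 alternative settings. Qars had 1818, 1979 and 1916 reads against 1791, 1812 and 1763, a fold of 0.939 (adjusted p = 0.129), and Hars a fold of 1.08 (adjusted p = 0.0997). Without Cort replicate 2, 5 mitochondrial genes were called.

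**Figure D3:**
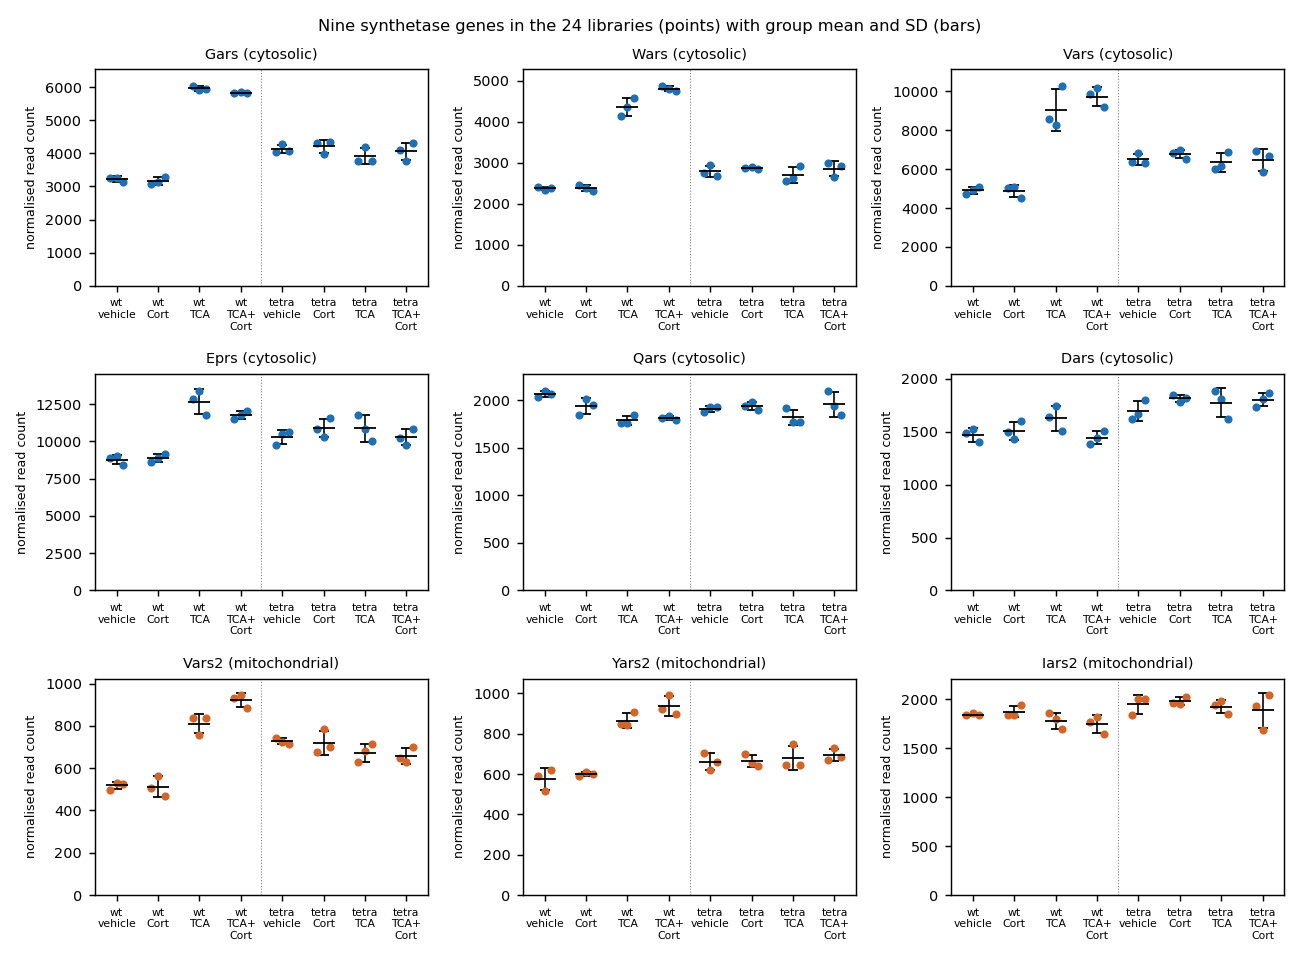
Normalised read counts of Gars, Wars, Vars, Eprs, Qars, Dars (cytosolic) and Vars2, Yars2, Iars2 (mitochondrial) in the 24 libraries on the joined scale (points: libraries, bars: group mean and SD, 3 libraries per group). In wt, Gars, Wars, Vars, Eprs, Vars2 and Yars2 stand higher in both groups with TCA than in both without it, whereas in tetra the 4 group means of each gene lie close together.

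In tetra, no synthetase gene passed the test with TCA. The cytosolic sum was 72762 ± 2049 normalised reads with vehicle and 72542 ± 431 with TCA, a ratio of 0.997, and the mitochondrial sum without Lars2 was 8570 ± 120 and 8463 ± 60.1, a ratio of 0.988. With limma 0 of 20 cytosolic and 0 of 17 mitochondrial genes were called; limma voom also called 0, and 0.0153% of all 13075 genes tested were called. At an unadjusted p below 0.05 was 1 gene of each class, and 4.01% of all genes tested. Median folds were 0.979 and 0.981, against 1.00 over all genes tested.

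Gars had 4046, 4295 and 4068 reads with vehicle in tetra and 3773, 4209 and 3757 with TCA, a fold of 0.946 with a 95% interval from 0.858 to 1.04. Wars had 2734, 2952 and 2675 reads against 2562, 2631 and 2905, a fold of 0.968 (interval 0.875 to 1.07). Vars had 6335, 6860 and 6342 reads against 5998, 6159 and 6881, a fold of 0.974 (interval 0.878 to 1.08). The triplets of all 3 genes overlapped, and the upper bounds of these intervals lay far below the folds seen in wt. Eprs had the highest cytosolic fold, 1.05, and Farsa the lowest, 0.909. Farsa, Kars, Sars2 and Vars2 had every TCA library below every vehicle library (for Vars2 629, 681 and 711 against 740, 728 and 715 reads), all with an adjusted p of 0.941, where 5.1% of all genes tested had triplets that did not overlap in this direction. Lars2 had 662, 666 and 1306 reads against 698, 567 and 694, a fold of 0.744, again resting on a single vehicle library.

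**Figure D4:**
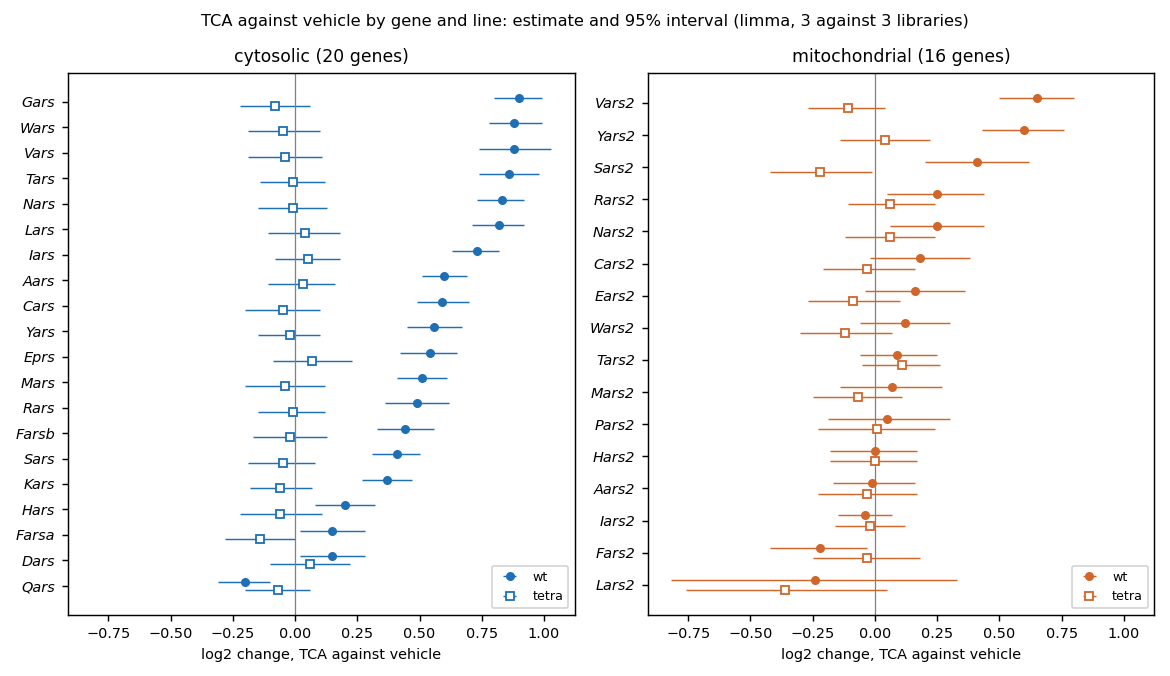
Estimated log2 change with TCA against vehicle and its 95% interval (limma, 3 against 3 libraries) for the 20 cytosolic and 16 of the 17 mitochondrial genes, in wt (filled) and tetra (open). The wt estimates of the cytosolic genes run from below 0 for Qars up to Gars, and those of tetra run from -0.14 for Farsa to 0.08 for Eprs.

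The difference between the lines was tested itself, as the log2 change with TCA in wt minus that in tetra. It was above 0 and passed the test for 18 of 20 cytosolic genes and 3 of 17 mitochondrial genes, and it passed below 0 for none of them, where 41.5% of all 12786 genes tested passed, 20.1% above 0 and 21.4% below 0. Gars differed by 0.97 ± 0.08 (SE; adjusted p = 1.18e-08), Wars by 0.93 ± 0.08 and Vars by 0.92 ± 0.1. Of the mitochondrial genes, Vars2 differed by 0.76 ± 0.1 (adjusted p = 5.96e-06), Sars2 by 0.62 ± 0.13 and Yars2 by 0.55 ± 0.12. Dars (0.09) and Qars (-0.14) were the cytosolic genes whose difference did not pass, with adjusted p of 0.515 and 0.151. The call of Hars (0.25, adjusted p = 0.0422) was lost in 10 of 18 alternative settings, and the other 20 calls held in all 18.

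TCA plus Cort against Cort in tetra also had 0 synthetase genes called, with limma and with limma voom, where 0.0622% of 12869 genes were called. At an unadjusted p below 0.05 were 0 cytosolic and 2 mitochondrial genes, and 6.57% of all genes tested. Gars had 4675, 4326 and 4716 reads with Cort and 4451, 4103 and 4663 with both agents, a fold of 0.964 with overlap. Lars2 had 1320, 992 and 1422 reads against 1006, 881 and 697, a fold of 0.692 (adjusted p = 0.536). Sars2 had 328, 317 and 296 reads against 269, 236 and 295, a fold of 0.85 (adjusted p = 0.759), with the highest treated library just under the lowest control library. With the replicate number as a block the call of Lars2 passed, at 0.00707, and leaving out replicate 3 of TCA plus Cort moved the count over all genes from 8 to 268 without adding a synthetase.

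Cort by itself left the synthetases without a call in either line, while Per1, a known target of the receptor, rose 6.83-fold in wt and 5.33-fold in tetra. In wt 2.38% of 12749 genes were called; 0 synthetase genes were called with limma or limma voom, and 5 cytosolic and 0 mitochondrial genes had an unadjusted p below 0.05, as did 14% of all genes tested. The cytosolic median fold was 1.02. Cars had the highest cytosolic fold, 1.12, with 2271, 2504 and 2386 reads with vehicle and 2717, 2665 and 2665 with Cort (adjusted p = 0.0848). Its Cort libraries all lay above the vehicle libraries, and without Cort replicate 3 it passed, at 0.0317, as the count over all genes went from 304 to 500. Without vehicle replicate 3 that count was 148, and Lars2 passed, at 0.00275.

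In tetra 3.34% of 12863 genes were called with Cort; 0 synthetase genes were called with limma or limma voom, and 0 cytosolic and 3 mitochondrial genes had an unadjusted p below 0.05, as did 12.2% of all genes tested. Wars2, the mitochondrial tryptophan enzyme, had 398, 370 and 388 reads with vehicle and 325, 336 and 344 with Cort, a fold of 0.87 (adjusted p = 0.254). Mars2 had 494, 481 and 528 reads against 465, 451 and 404, a fold of 0.877 (adjusted p = 0.292). Both had Cort libraries below all vehicle libraries, as did 7.38% of all genes tested. Lars2 had a fold of 1.31 (adjusted p = 0.309) and passed without vehicle replicate 3 or with the replicate block. The difference in the Cort change between wt and tetra passed for 0 of 37 genes, with 0 at an unadjusted p below 0.05 and 0 by limma voom. Of all 12841 genes 1.17% passed, and 7.47% had an unadjusted p below 0.05.

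Adding Cort to TCA called 0 synthetase genes in wt, where 0.415% of 12774 genes were called, and limma voom also called 0. At an unadjusted p below 0.05 were 8 cytosolic and 2 mitochondrial genes, in mixed directions, and 17.3% of all genes tested. Mars had 3253, 3104 and 3312 reads with TCA and 3551, 3676 and 3645 with both agents, a fold of 1.12 (adjusted p = 0.1). Rars had 2490, 2656 and 2338 reads against 2242, 2150 and 2216, a fold of 0.883 (adjusted p = 0.128), and Wars a fold of 1.10 (adjusted p = 0.139). None of these triplets overlapped. The same held for 5 synthetases on the higher side and 7 on the lower, and the share over all genes is not given here. Replicate 3 of TCA in wt decided the count: without it 2569 genes were called in place of 53, among them 9 cytosolic genes (Dars, Eprs, Iars, Mars, Nars, Rars, Tars, Vars and Wars) and 3 mitochondrial genes (Lars2, Rars2 and Vars2). Each of the other 5 libraries, when left out, took the count over all genes to between 6 and 18 and called 0 synthetases. In tetra 1.71% of 12830 genes were called and 0 synthetases, with 0 by limma voom and 0 cytosolic and 1 mitochondrial gene at an unadjusted p below 0.05, beside 7.67% of all genes. Lars2 had the highest fold there, 1.22 (adjusted p = 0.561).

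**Figure D5:**
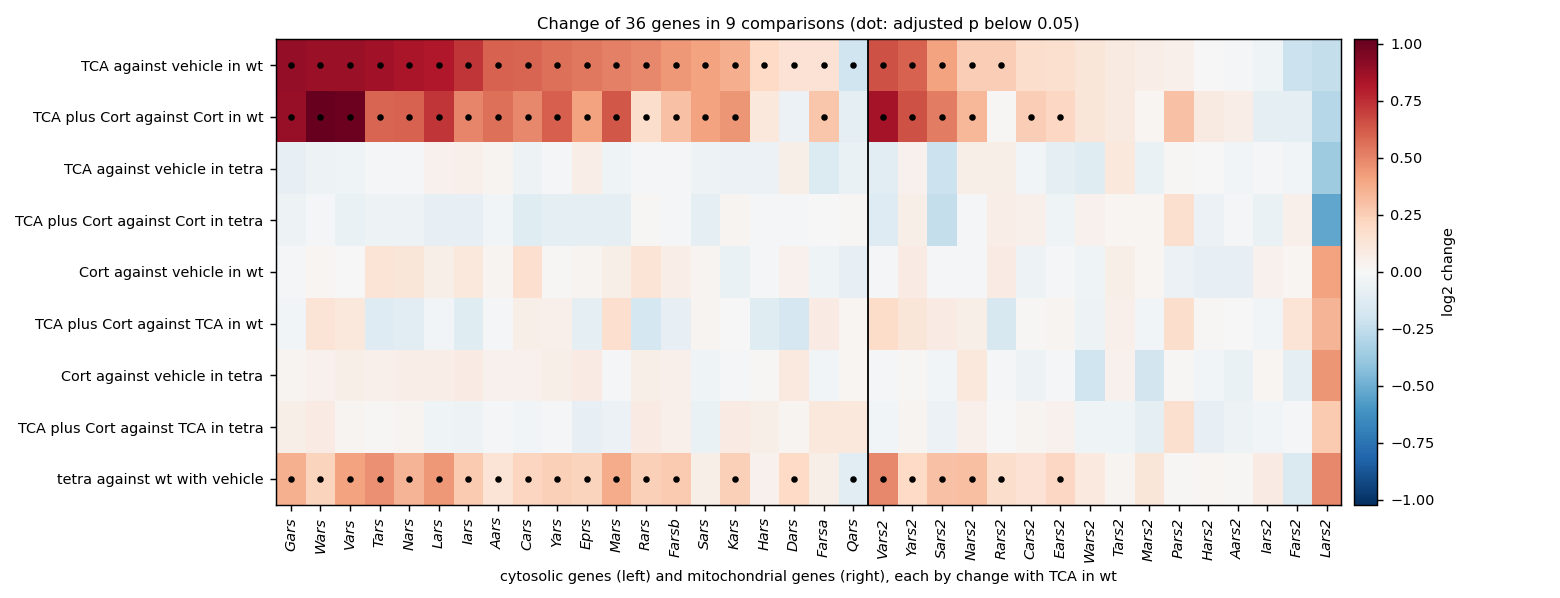
Estimated log2 change (color) of the 20 cytosolic genes (left) and 16 of the 17 mitochondrial genes (right) in 9 comparisons, with a dot where the adjusted p is below 0.05. Dots stand in the rows of TCA against vehicle in wt, TCA plus Cort against Cort in wt, and tetra against wt with vehicle; comparisons that share a group of libraries are not independent.

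The lines already differed with vehicle. In tetra against wt, 16 of 20 cytosolic genes were higher and 1 was lower, and 6 of 17 mitochondrial genes were higher and 0 lower, where 44.2% of all 12801 genes tested were called, 21.4% as higher and 22.8% as lower. Median folds were 1.18 for the cytosolic genes, 1.08 for the mitochondrial genes and 1.00 over all genes tested, and the sums had ratios of 1.19 and 1.12 (1.1 without Lars2). Tars had 2011, 2027 and 2028 normalised reads in wt and 2729, 2863 and 2812 in tetra, a fold of 1.39 (adjusted p = 8.11e-10). Vars2 had 479, 510 and 508 reads in wt and 712, 701 and 687 in tetra, a fold of 1.40 (adjusted p = 6.61e-07). Both genes stood clearly higher in all tetra libraries. Lars, Vars and Gars had folds of 1.35, 1.33 and 1.28, and Eprs of 1.17. In these tetra libraries the summed epithelial markers were 532 to 661 against 1077 to 1228 in wt, the immune sum 121 to 134 against 201 to 251 and the endothelial sum 194 to 209 against 266 to 294. The mesenchymal sum was 151283 to 155273 against 169038 to 172120, with 3 of 6 genes higher and 2 lower, and the adipocyte sum 6.34 to 13.6 against 5.84 to 15.6. The part of these markers in the result was not tested.

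Qars was lower in tetra, with 1955, 2021 and 1991 reads in wt and 1802, 1858 and 1856 in tetra, a fold of 0.924 (adjusted p = 0.046), but that call was lost in 10 of 12 alternative settings. Sars, Farsa and Hars were the cytosolic genes without a call, with folds of 1.04, 1.04 and 1.03. The mitochondrial count of 6 fell to 2 without wt vehicle replicate 2 and without tetra vehicle replicate 3, and rose to 11 with scaling by total exon reads without Rn45s, which moved the median of all genes by 0.1 on the log2 scale. These comparisons share libraries: the wt vehicle libraries are also the control of TCA and of Cort in wt, and the tetra vehicle libraries those of tetra. With TCA the wt cytosolic sum stood at 1.29 times that of tetra with TCA, and the mitochondrial sum without Lars2 at 1.03 times.

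Proteins around the synthetases were read from lists of companion genes, beside 28.8% of all genes called higher and 28.6% lower with TCA in wt. Of the 3 scaffold genes of the multisynthetase complex, 2 rose with TCA in wt: Eef1e1 from 403, 370 and 341 to 594, 634 and 538 reads, a fold of 1.59 (adjusted p = 1.69e-05), and Aimp2 by 1.26-fold (adjusted p = 0.00106). Aimp1 had a fold of 1.10 (adjusted p = 0.0832), and with Cort in both arms all 3 rose, Eef1e1 by 1.69, Aimp2 by 1.35 and Aimp1 by 1.21. There 29.8% of all genes tested were called higher. Of the genes that make the mitochondrial glutaminyl-tRNA by amidation, Gatc rose 1.17-fold, Gatb fell, at 0.822 (adjusted p = 0.0202), and Qrsl1 had a fold of 1.16 (adjusted p = 0.169). They belong to a list of tRNA helper genes, of which 10 were tested, with 2 called higher and 2 lower. In tetra with TCA limma called none of the scaffold or helper genes, and 0 had an unadjusted p below 0.05. Of all genes tested there, 0.0153% were called and 4.01% had an unadjusted p below 0.05.

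Genes of amino acid synthesis and uptake, the supply side of tRNA charging, rose with TCA in wt in 16 of 17 cases and 1 fell, with a median fold of 2.13, where 28.8% of all genes tested were called higher and 28.6% lower. Slc6a9, a glycine transporter, rose from 1835 ± 79.8 to 4959 ± 306 reads, a fold of 2.7 (adjusted p = 1.19e-10). Asns, asparagine synthetase, rose from 4956, 5138 and 4804 to 10223, 10540 and 11005 reads, a fold of 2.13 (adjusted p = 3.7e-10). Shmt2 and Mthfd2, of mitochondrial serine and folate metabolism, rose 2.52- and 2.39-fold. Slc7a3, a transporter of basic amino acids, fell from 19.5 ± 2.08 to 10.6 ± 0.682 reads (adjusted p = 0.0277). In tetra limma called 0 of 16 tested with TCA, 1 had an unadjusted p below 0.05 and Asns had a fold of 0.973. Across the list, 15 of 17 genes had a difference between the lines that passed above 0, as did 20.1% of all genes tested. With vehicle, 15 of the 17 were higher in tetra than in wt and 1 was lower, beside 21.4% and 22.8% of all genes tested, and Asns had a fold of 1.51.

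The integrated stress response list had 11 of 15 genes tested higher with TCA in wt and 2 lower, with a median fold of 1.59, beside 28.8% and 28.6% of all genes tested. Trib3, a pseudokinase and known ATF4 target, rose from 1638, 1913 and 1862 to 7775, 7646 and 8021 reads, a fold of 4.33 (adjusted p = 3.99e-12). Chac1, a glutathione-degrading enzyme and ATF4 target, rose from 1145 ± 24 to 4068 ± 200 reads, a fold of 3.55 (adjusted p = 6.97e-12). Atf4 itself rose 1.63-fold, from 9725 ± 258 to 15838 ± 413 reads. The kinase genes Eif2ak2 and Eif2ak4 fell, to 0.834 and 0.819. With TCA in tetra limma called 0 of the 15, with 0 at an unadjusted p below 0.05, Trib3 having a fold of 1.00 and Chac1 of 0.972. With vehicle, 8 of the 15 were higher in tetra than in wt, Trib3 by 1.87-fold and Chac1 by 1.74-fold, and 2 were lower, among them Ddit3, at 0.873, beside 21.4% and 22.8% of all genes tested.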

How the data were processed

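Per the labels' protocols, Ribo-Zero Plus depletion preceded stranded TruSeq total RNA libraries. Per the submitters' processing notes, the tools were cutadapt (version not given in the sources used here), STAR 2.7.0f and HOMER 4.10.4, with mm10. The authors deposited 6 tables of 6 libraries each, whose log2-like values were variance-stabilised table by table, per the file headers. The deposited log2 fold changes, p-values and adjusted p-values of the authors were not used. The headers state no strand setting, 5 of the 6 name libraries as Halo where the labels say GFP, and the command in the header of TCA in wt lists fewer group labels than its 6 libraries.

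The scale was inverted to recover read counts, which came out whole (within 0.01, for counts below 1000) in 100.0% of cases in every library. Depending on the library, 3 counts correspond to 0.0981 to 0.1362 CPM, a floor for counting error only. Rn45s, a ribosomal RNA precursor, took 18.23 to 28.57% of exon reads. Normalised counts are recovered counts divided by the size factors of a table, and the same library therefore has slightly different values in different comparisons. Folds are ratios of mean normalised counts. The share of all genes whose triplets do not overlap is given only for TCA and for Cort against vehicle in tetra. In the other comparisons a lack of overlap only describes the libraries of the gene. Estimates with SE or intervals are on the log2(normalised count + 1) scale and understate changes of low genes.

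Each table was tested by itself with limma 3.58.1 (R 4.3.3, trend) on the deposited values, keeping genes whose mean normalised count reached 10, with Benjamini-Hochberg adjustment over all of them and a threshold of 0.05. Comparisons that no table holds (TCA plus Cort against Cort, tetra against wt, and differences between lines) used log2(normalised count + 1) with size factors from the recovered counts of the libraries joined. The table of TCA in tetra holds a newer set of 26188 genes, of which 2099 symbols were given their older form, and there recovered counts of the same vehicle libraries differed from the older set by at most 1.37% for a member (Nars). Tests were tried on simulated data first. Python 3.11.15 with numpy 2.4.6, pandas 2.3.3 and matplotlib 3.10.9 made summaries and figures. Promoter windows are from RefSeq and exon overlaps from the GENCODE annotation of GRCm38. Each overlap is a percentage of all GENCODE exon bases of the gene. Its share of the exons in which reads were counted was not computed.

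The members and the companion lists were chosen with earlier results of these data known. A mitochondrial member is counted among the 17 and is not reported here by name. The text names every other member, for companion lists of up to 12 genes any of them and for longer lists at most 4 genes with the smallest adjusted p in TCA against vehicle in wt, and Nr3c1, Per1, Trib3, Chac1 and Asns. Slc7a3, Atf4, Eif2ak2, Eif2ak4, Ddit3 and the marker genes were named after their values were seen. Alternatives were other scaling, no filter, no trend, a pseudocount of 5, a replicate block, leaving out each library, and limma voom.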

Additional observations from a re-analysis of the deposited data

Results flagged for a closer look

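The change with TCA against vehicle differed between wt and tetra for 21 of the 37 synthetase genes, by the test of the difference itself (limma, adjusted over 12786 genes). In this comparison 41.5% of all genes tested passed, and every one of these 21 genes had the larger change in wt. Values are log2 changes in wt minus those in tetra.

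Outside the multisynthetase complex the differences were 0.97 for Gars, 0.93 for Wars, 0.92 for Vars, 0.86 for Tars, 0.83 for Nars, 0.64 for Cars, 0.57 for Yars, 0.56 for Aars, 0.46 for Sars, 0.46 for Farsb, 0.29 for Farsa and 0.25 for Hars. Within the complex they were 0.77 for Lars, 0.67 for Iars, 0.54 for Mars, 0.5 for Rars, 0.46 for Eprs and 0.42 for Kars. Among mitochondrial enzymes they were 0.76 for Vars2, 0.62 for Sars2 and 0.55 for Yars2. For Sars2 and Vars2 every TCA library of tetra was below every vehicle library of tetra, while in wt every TCA library was above. The tetra change of these 2 genes was not called by limma (adjusted p = 0.941). In tetra 5.1% of all genes tested separated in that direction.

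Groups of 3 libraries are too small to test for a library that stands apart, and the spread of Lars2 is given above as a description.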

How the results depend on the processing

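No called synthetase changed direction under any alternative run. Of the called genes, 20 of 25 with TCA in wt, 21 of 24 with TCA plus Cort against Cort in wt, 17 of 23 in tetra against wt and 20 of 21 in the difference with TCA kept their call throughout. Scaling by total exon reads without Rn45s called 9 mitochondrial genes in place of 5 with TCA in wt, 11 in place of 6 in tetra against wt, 6 in place of 3 in the difference with TCA, and 1 cytosolic gene in place of 0 with Cort in wt. In TCA plus Cort against Cort in wt this scaling added calls of Hars, Pars2 and Tars2. It moved the median log2 change of all genes by 0.06 with TCA in wt. The shift was 0.07 in TCA plus Cort against Cort in wt, and 0.1 in tetra against wt and in the difference with TCA. Without a filter 5 genes were called with TCA in tetra. Without the trend 0 genes were called in TCA plus Cort against Cort in tetra and 88 in the difference with Cort. The causes were not tested.

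Replicates share only a number. The deviations of same-numbered libraries correlated between -0.43 and 0.49, and in none of the comparisons above 0.1 for all pairs. With the replicate block 7708 genes were called with TCA in wt (20 cytosolic and 6 mitochondrial), 9 on adding Cort to TCA in wt, 11 with TCA in tetra and 77 in TCA plus Cort against Cort in tetra. The block also called 1 mitochondrial gene, Lars2, with Cort in tetra and 1, Lars2, in TCA plus Cort against Cort in tetra.

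Leaving out each library in turn, the genes called ranged from 148 to 500 with Cort in wt, 6 to 2569 on adding Cort to TCA in wt, 1 to 6 with TCA in tetra and 1 to 268 in TCA plus Cort against Cort in tetra. Mitochondrial calls ranged from 3 to 5 with TCA in wt, 0 to 1 with Cort in wt, 0 to 3 on adding Cort to TCA in wt, 0 to 1 with Cort in tetra and 2 to 7 in tetra against wt. Cytosolic calls ranged from 18 to 19 with TCA in wt, 0 to 1 with Cort in wt and 0 to 9 on adding Cort to TCA in wt. The calls of Nars2 and Rars2 with TCA in wt were lost in 4 and 5 of 12 settings, with adjusted p up to 0.112 and 0.177. Fars2 reached 0.0354 at its lowest.

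Count models (edgeR and DESeq2) were not run, because the deposited unit is not counts. In their place limma voom on recovered counts, chosen after seeing the data, called 7276 genes with TCA in wt (20 cytosolic and 5 mitochondrial). Depth limits few members, since the lowest mean count was 141.0 (Pars2). Spread between replicates limits Lars2, and 3 libraries a group limit every small fold. Where strand was not used in counting, antisense reads could add to Iars2, Farsb, Vars2, Hars, Cars2 and Hars2, among others, and no strand setting separates Aars from Exosc6 where they overlap.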

Other observations

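Other parts of the translation machinery were read with TCA against vehicle in wt beside 28.8% of all genes tested called higher and 28.6% lower. Of 9 mitochondrial translation factors, 5 rose: Mtrf1, a release factor, from 46.7 ± 4.86 to 68.1 ± 2.4 normalised reads (fold 1.46, adjusted p = 0.0127), the elongation factors Tsfm (1.39), Gfm1 (1.31) and Tufm (1.11), and the initiation factor Mtif3 (1.26). Tsfm had 373, 423 and 420 reads with vehicle and 547, 512 and 633 with TCA, without overlap. Of the 5 cytosolic elongation factor genes, Eef1g and Eef1d rose 1.24- and 1.22-fold, Eef1b2 and Eef1a1 fell, to 0.752 and 0.881, and Eef2 was not called. Of 78 mitochondrial ribosomal protein genes 36 rose and 4 fell, with a median fold of 1.14. Of 78 cytosolic ones tested 20 rose and 4 fell, with a median fold of 1.04. With TCA plus Cort against Cort in wt, 57 of the 78 cytosolic ones rose and 2 fell, with a median fold of 1.21, and 48 of the 78 mitochondrial ones rose and 2 fell, also with a median fold of 1.21. Of all genes tested in that comparison, 29.8% were called higher and 29% lower. With TCA in tetra 0 genes of these lists were called by limma, and 1 mitochondrial translation factor, 8 mitochondrial and 3 cytosolic ribosomal protein genes had an unadjusted p below 0.05. Of all genes tested in tetra with TCA, 0.0153% were called and 4.01% had an unadjusted p below 0.05.

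Smaller enzymes that act on charged tRNAs went both ways with TCA in wt. Pstk, the kinase on the path to selenocysteinyl-tRNA, rose from 189, 169 and 202 to 237, 247 and 238 reads, a fold of 1.29 (adjusted p = 0.00659). Prorsd1, a prolyl-tRNA synthetase domain protein, fell from 50.1, 50.5 and 54.2 to 26.1, 26.6 and 32.4 reads, a fold of 0.55 (adjusted p = 0.00199). Neither gene had overlapping triplets. Mtfmt, which formylates the mitochondrial initiator tRNA, had a fold of 1.05 (adjusted p = 0.684). With vehicle, 66 of 78 cytosolic ribosomal protein genes were higher in tetra than in wt and 0 lower, with a median fold of 1.17, beside 21.4% of all genes tested called higher; 13 of 78 mitochondrial ones were higher and 4 lower.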
